A study of Drosophila melanogaster with 48 samples.

Results

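Cytosolic ribosomal proteins build the small and large subunits of the ribosome that translates nuclear mRNA. Their genes were taken here as every gene of the expression table whose symbol begins with RpL or RpS, together with sta (stubarista), which encodes a small subunit protein. The rule found 93 of 17558 genes, 54 for the large and 39 for the small subunit. In 14 pairs of listed relatives a second gene stands beside a more strongly expressed one, and the more strongly expressed gene was counted as the main copy. This left 79 main members and 14 second copies.

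Most ribosomal proteins enter each ribosome once, so that their mRNAs are usually made and kept in step. Growing cells spend much of their transcription on them, and in Drosophila the loss of 1 copy of many of these genes gives the Minute phenotype of slow development and short bristles. Larvae do most of the growing of the fly life cycle, while pupae live on stored material. Some second copies arose by duplication, and those of RpL22 and RpS19 are known in flies from the germ line. Assembly of the subunits takes place in the nucleolus and uses a separate set of ribosome biogenesis factors. RpL24-like, RpLP0-like and RpL7-like are relatives of the yeast assembly factors Rlp24, Mrt4 and Rlp7 and carry ribosomal protein names through sequence likeness.

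The libraries were made from poly(A) RNA of whole Drosophila melanogaster. Wild type (labelled wOB) was set against 1 mutant line of prothoracicotropic hormone (labelled ptth120BC2; the study's allele is a null with a small deletion in the last exon, backcrossed to the wild-type background). Ptth encodes the brain hormone that makes the prothoracic gland release ecdysone and so sets the time of pupariation. Each group had 3 biological replicates, each a pool of whole animals (about 15 by the labels, 10 to 15 by the study's methods). Stages were matched by the time to pupariation, and were early in the third instar (L3E, 72 h after egg laying in wild type and 96 h in mutants), late in the third instar (L3L, 96 h and 120 h), white prepupae (WP), pupae 1, 2, 3 and 4 days after pupariation (P1 to P4) and newly emerged adults (A0). L3E and L3L mutants were thus 24 h older than the wild type they were compared with, so that age and genotype cannot be told apart there, and mutant L3E was also compared with wild-type L3L at the same 96 h.

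The libraries held between 16712549 and 29784621 reads assigned to genes. The values are FPKM (fragments scaled to gene length and sequencing depth), scaled by the authors so that a typical gene was level between libraries. Alternatives were the same values rescaled to an equal sum per library (TPM) or forced to 1 common distribution (quantile normalization). The choice of scale moved the median of all 12282 tested genes by more than 0.1 on the log2 scale in many comparisons, for example from 0.07 to 0.68 under TPM for wild type between L3L and WP and from 0.02 to 0.27 for the genotypes at L3L, and it is given beside each result that it turned. In whole animals, fewer cells of a type and less RNA per cell cannot be told apart. The labels give no sex, and the newly emerged adults stood apart: roX1, a noncoding RNA made in males, was at 0.158 to 0.282 FPKM in 5 of the 6 A0 libraries and at 1.55 FPKM in mutant A0 replicate 3, against 23.8 to 67.9 FPKM in the other 42 libraries.

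The 79 main members were expressed at a high and narrow band of levels. Their means over the 48 libraries ran from 395 FPKM for RpL38 to 2645 FPKM for RpL41, with a median of 1074 FPKM. The 47 main members of the large subunit had a median of 1087 FPKM and the 32 of the small subunit a median of 1044 FPKM. The acidic stalk proteins RpLP2 and RpLP1 stood at rank 2 with 2442 FPKM and at rank 7 with 1765 FPKM. RpL5 and RpL11, which travel with 5S rRNA into the large subunit, were at 451 and 1020 FPKM. FPKM divides by the annotated gene length, which was 3835 bases for RpL5, 1017 for RpL11, 1013 for RpL38 and 320 for RpL41. Differences in level between genes therefore rest on this length as well, and its part was not tested. RpS6, the target of the S6 kinase, was at 1212 FPKM, and RpS3, which lies at the mRNA entry of the small subunit, at 1192 FPKM. RpS27A, RpL40 and RpS30, which are made as fusions with ubiquitin or a relative of it, were at 1675, 1074 and 1339 FPKM. Every second copy had a lower mean than every main member, which within a pair follows from how the main copy was chosen. RpL34a and RpS14b were at 212 and 260 FPKM, and the others at 102 FPKM or less.

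Summed over the 93 genes, the level was highest in L3E larvae and lower in every later group. In wild type the sum was 173503 ± 26797 FPKM (SD, n = 3) at L3E, 120666 ± 4232 at L3L, 96489 ± 12229 at WP, 74595 ± 6359 at P1 and 64428 ± 954 at P4. In Ptth mutants it was 157727 ± 28200 FPKM at L3E, 93942 ± 3890 at L3L, 78590 ± 7572 at WP, 64348 ± 2615 at P1 and 73055 ± 494 at P4. The share of each library's reads on the 93 genes, which does not depend on the scaling between libraries, took another course. It was 12.2% ± 1.19 at wild-type L3E, 8.89% ± 0.230 at L3L, 10.4% ± 0.838 at WP, 10.3% ± 0.713 at P1 and 5.16% ± 0.0402 at P4. In mutants it was 9.57% ± 0.995 at L3E, 8.45% ± 0.156 at L3L, 9.11% ± 0.631 at WP, 8.80% ± 0.287 at P1 and 5.68% ± 0.202 at P4. The share was lowest from P3 on in both genotypes, whereas the summed FPKM of mutants was lowest at P1. From L3L to WP the mean share was higher in both genotypes and the mean summed FPKM lower.

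**Figure D1:**
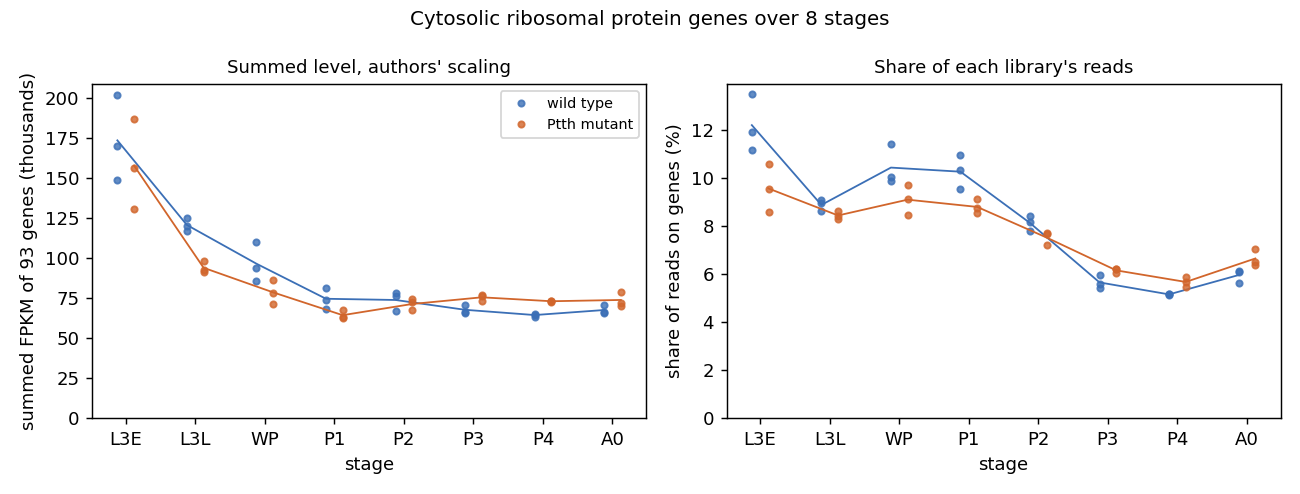
Summed FPKM of the 93 cytosolic ribosomal protein genes (left) and their share of reads on genes in percent (right) at 8 stages; each point is 1 library, lines join the means of 3 libraries, blue wild type, orange Ptth mutants. The wild-type sum falls from 173503 FPKM at L3E to 64428 FPKM at P4, while the wild-type share is 8.89% at L3L and 10.4% at WP before it reaches 5.16% at P4.

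Between L3E and A0 nearly all members fell. With limma on log2(FPKM + 1), 84 of the 92 members tested were called lower and 1 higher in wild type (called means a Benjamini-Hochberg adjusted p below 0.05 together with more than a 2-fold change, here and throughout; 33.8% of all tested genes were called in either direction), and 60 were called lower and 1 higher in mutants (36% of all genes). The median change of the main members was -1.30 in wild type and -1.10 in mutants, against -0.06 and -0.16 for all genes. The size depended on the scale: under TPM the medians were -0.65 and -0.18, under quantile normalization -0.35 and -0.01, while the medians of all genes were 0.27 and 0.52 under TPM. All 79 main members lay below 0 in wild type under the 3 scalings, while in mutants 60 did under TPM and 41 under quantile normalization. The single member called higher was RpS5b in both genotypes. The male RNA roX1 was at 25.7 to 41.4 FPKM in the L3E libraries and at 0.158 to 1.55 FPKM in the A0 libraries. Stage and any change in the share of males thus cannot be told apart between L3E and A0.

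On the authors' FPKM scale the drop was spread over the first steps. From L3E to L3L, 2 members were called in wild type (20% of genes called) and 2 in mutants (15.8%), but at any fold 79 members were lower in wild type at adjusted p under 0.05 (29.1% of genes lower) and 82 in mutants (27.5%), with main medians of -0.49 and -0.71. This step kept its direction in the medians under TPM (-0.43 and -0.10) and quantile normalization (-0.26 and -0.05). From L3L to WP, 1 member was called in wild type (32%) and 0 in mutants (19.7%; 57 members at an unadjusted p under 0.05 by limma, 1 called by limma-voom). At any fold 55 members were lower in wild type (31.2% of genes lower) and 47 in mutants (28.3%), but TPM turned this step, with 85 and 84 members higher, where 64.8% and 62.4% of all genes were higher too. The main medians were then 0.40 and 0.35 in place of -0.33 and -0.28, below the medians of all genes of 0.68 and 0.56. From WP to P1, 0 members were called in wild type (16.1%; 73 at an unadjusted p under 0.05 by limma, 0 called by limma-voom) and 1 in mutants (22.6%). At any fold 65 were lower in wild type (25.8% of genes lower) and 48 in mutants (23.9%), while under TPM the medians of -0.39 and -0.32 became 0.05 and 0.01.

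From P1 on the main members moved little on the FPKM scale. The main median changed by -0.03, -0.11, -0.07 and 0.05 over the 4 wild-type steps from P1 to A0 and by 0.15, 0.09, -0.05 and 0.00 over the mutant steps. Under TPM the same steps read -0.33, -0.58, -0.05 and 0.24 in wild type and -0.29, -0.36, -0.08 and 0.25 in mutants, so that the mutant steps from P1 to P2 and from P2 to P3 changed sign and no wild-type step did. No main member was called at any of these 8 steps. From P1 to P2, 1 member was called in wild type (15.5% of genes) and 0 in mutants (13.3%; 6 at an unadjusted p under 0.05 by limma, 0 called by limma-voom). From P2 to P3, 0 were called in wild type (15.3%; 12 at an unadjusted p under 0.05, 0 called by limma-voom) and 0 in mutants (12.1%; 4 at an unadjusted p under 0.05, 0 called by limma-voom). From P3 to P4 it was 1 in each genotype (19.6% and 19.1% of genes) and from P4 to A0 it was 7 in each (22.4% and 23.8%). All of these later calls were second copies.

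The main members moved together closely. Each main member was set against the median of the 79 in the same library, and the SD of this log2 difference over the 48 libraries had a median of 0.10. RpL19 and RpL10Ab were among the closest followers, with SDs of 0.044 and 0.048. RpL32, the reference gene of the study's quantitative PCR, had an SD of 0.060 and stood at rank 7 of 79. The furthest from the common course were RpL22 (0.31), RpL39 (0.31) and RpL41 (0.30). RpL39 and RpL41, with annotated lengths of 288 and 320 bases, also spread within groups, for example at 684 ± 242 and 3241 ± 1173 FPKM (SD, n = 3) at wild-type WP. The part of gene length in this spread was not tested. RpL19 and RpL39 were singled out here after their values were seen.

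RpL32, a large subunit protein also called rp49, followed the group and therefore did not stay level on the FPKM scale. In wild type its 3 libraries were at 2608, 1891 and 2117 FPKM at L3E and at 859, 857 and 906 FPKM at A0. In mutants they were at 2559, 2051 and 1733 FPKM at L3E and at 1031, 894 and 854 FPKM at A0. The groups did not overlap in either genotype, and the fall was -1.32 in wild type (SE 0.10, adjusted p = 3e-10, limma) and -1.18 in mutants (SE 0.11, adjusted p = 1.11e-08) on the log2 scale. Under TPM these values were -0.67 and -0.26 and were no longer called. Stage and any change in the share of males cannot be told apart here either. Between genotypes RpL32 was not called at any stage. The difference was -0.30 at L3L (SE 0.06, adjusted p = 0.0118; 0.01 under TPM) and lay between -0.32 and 0.23 at the other 7 stages, with adjusted p from 0.0598 to 0.84.

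RpL41, a very short basic peptide of the large subunit, had the widest range of the main members. Its wild-type libraries were at 8199, 4810 and 6674 FPKM at L3E and at 4869, 4173 and 4429 FPKM at L3L. Its mutant libraries were at 6773, 6018 and 4360 FPKM at L3E and at 2022, 2209 and 2332 FPKM at L3L. Every mutant library was thus below every wild-type library at L3L, while the genotypes overlapped at L3E. RpL41 fell by 1.36 on the log2 scale between L3E and L3L in mutants (SE 0.16, adjusted p = 7.89e-07, limma; -0.75 under TPM, where the call was lost) and was lower in mutants at L3L by a log2 difference of -1.04 (SE 0.10, adjusted p = 0.0014), a call that was lost under TPM (-0.73) and quantile normalization (-0.65). Without wild-type replicate 1 or mutant replicate 1 the difference was -0.98 and fell just short of 2-fold. RpL41 lies on 2R, positions 24903416 to 24903935, minus strand, and overlaps NaCP60E on the opposite strand.

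**Figure D2:**
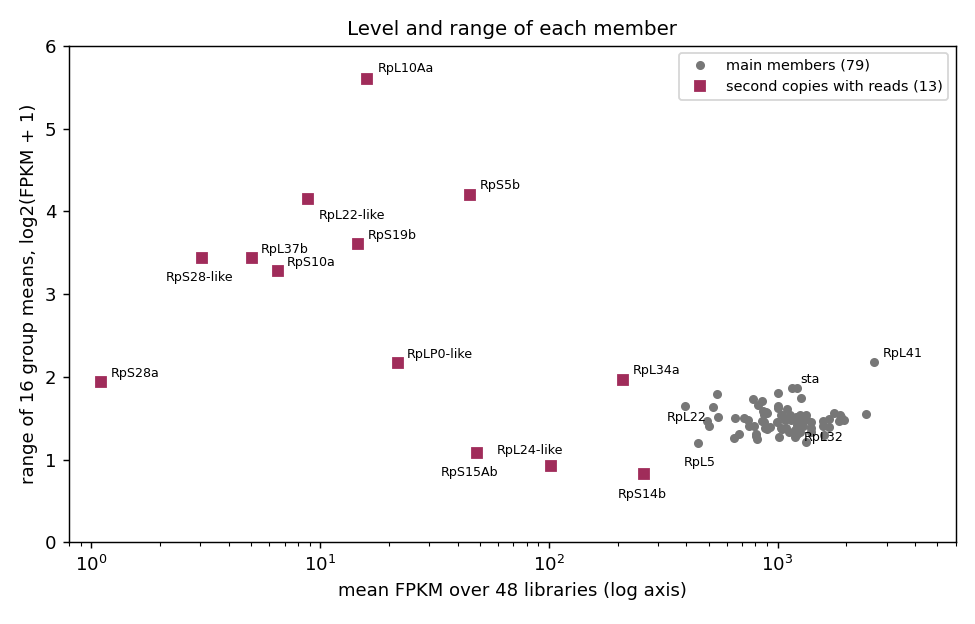
Mean FPKM over 48 libraries on a log axis (x) against the range of the 16 group means of log2(FPKM + 1) (y) for 79 main members (grey circles) and the 13 second copies with reads (red squares). Main members form a cluster with ranges of 1.20 to 2.18, and the second copies spread from 0.82 for RpS14b to 5.60 for RpL10Aa.

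Between the genotypes, few members passed the rule at any stage. At L3E 2 of 92 were called (17.2% of all tested genes), at L3L 2 (10.8%), at WP 0 (1.56%), at P1 0 (2.38%), at P2 0 (1.17%), at P3 2 (3.12%), at P4 0 (1.03%), at A0 0 (0.448%) and at equal age 0 (3.81%). At the 6 comparisons with a count of 0, limma gave 26, 55, 11, 49, 25 and 43 members at an unadjusted p under 0.05 (in the order WP, P1, P2, P4, A0, equal age), and limma-voom called 0 in each. The members called were RpL10Aa (higher) and RpLP0-like (lower) at L3E, RpL10Aa (higher) and RpL41 (lower) at L3L, and RpL37b and RpS28-like (lower) at P3. RpL41 was the only main member among them.

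Without a fold threshold, small shifts of the whole group were seen, and their size rested on the scale. At L3L 79 members were lower in mutants at adjusted p under 0.05 (20% of all genes were lower), with a main median of -0.34, which was -0.03 under TPM and -0.09 under quantile normalization. At L3E the median was -0.12 with 4 members lower (18.2% of genes), and it was larger under TPM at -0.36 with 68 members lower (23.6% of all genes were lower under TPM, and their median was -0.15) and under quantile normalization at -0.29 with 50 lower (19.9% of all genes). At P1 27 members were lower (16.2% of genes) with a median of -0.21, which was -0.11 under TPM and 0.01 under quantile normalization. At P3 41 members were higher in mutants (9.79% of genes were higher) with a median of 0.16, which was 0.16 under TPM and 0.00 under quantile normalization. At equal age, mutant L3E against wild-type L3L, the median was 0.37 on the FPKM scale, 0.06 under TPM and -0.04 under quantile normalization, and 3 of 92 members were higher at any fold (14.3% of all genes were). Of these medians, that at L3E was below 0 and at least 0.12 in size on each of the 3 scales, and those at P1 and equal age changed sign. The main medians at WP, P2, P4 and A0 were -0.29, -0.02, 0.18 and 0.11 on the FPKM scale, the only scale given for them here. At WP 0 members were lower at adjusted p under 0.05 (644 of 12282 genes were), and at P4 1 was higher (170 genes were).

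**Figure D3:**
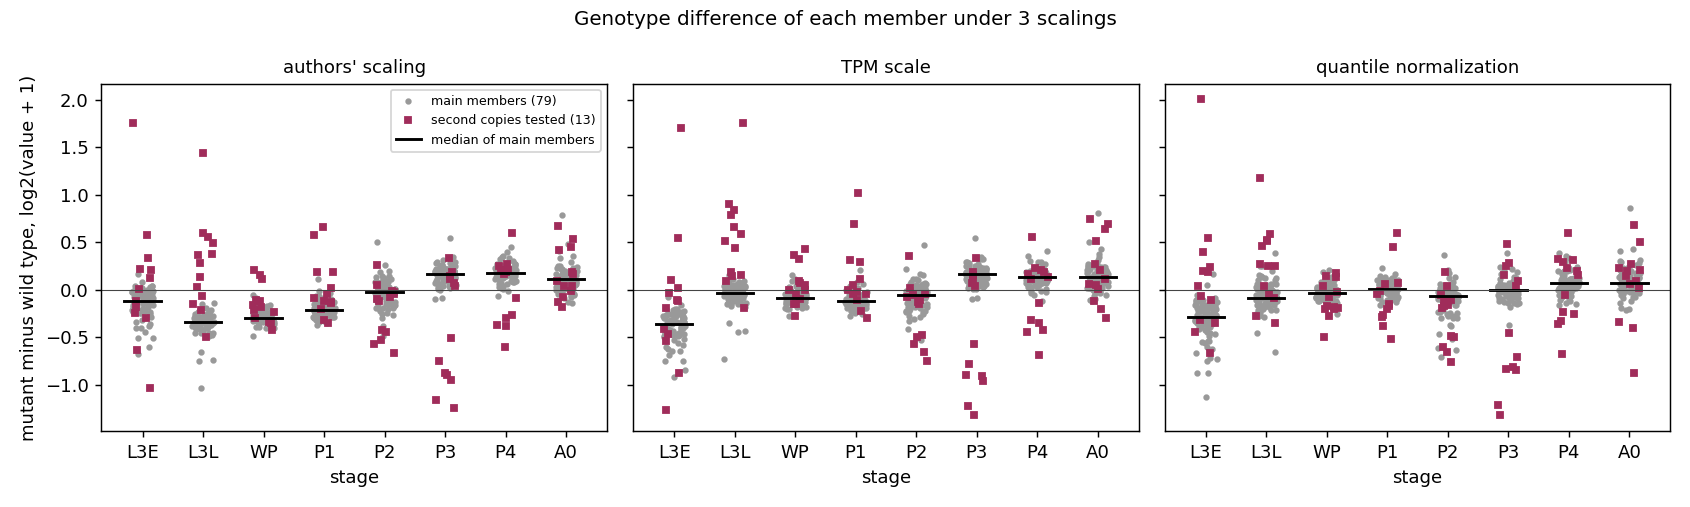
Mutant minus wild type on the log2(value + 1) scale for 79 main members (grey) and 13 second copies tested (red) at 8 stages under 3 scalings; black bars are the medians of the main members. The median at L3L is -0.34 with the authors' scaling and -0.03 under TPM, that at L3E is -0.12 and -0.36, and that at P1 changes sign under quantile normalization.

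Among the 18 members with a listed role, 1 was called between genotypes at any stage, RpL41 at L3L. The share of all tested genes called was 10.8% at L3L and ran from 0.448% at A0 to 17.2% at L3E over the stages. Sta, the RpSA protein of the small subunit, was at 3047, 2375 and 2539 FPKM in wild type and at 2046, 1721 and 1479 FPKM in mutants at L3E. Every mutant library was below every wild-type library, with a log2 difference of -0.61 (SE 0.18, adjusted p = 0.0428) that was -0.85 under TPM and -0.87 under quantile normalization. The acidic stalk proteins RpLP1 and RpLP2 differed there by 0.02 and 0.04, and the base of the stalk RpLP0 by -0.14, with adjusted p of 0.541 to 0.966. RpS12 and RpS13 differed by -0.13 and -0.23 at L3E and by -0.45 and -0.45 at L3L. RpL10, which joins the large subunit late in assembly, and RpL38 differed by -0.40 and -0.49 at L3L, where the medians of all members shifted in the same direction.

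RpL22, a large subunit protein that is the main partner of RpL22-like, departed from the common course in mutant pupae. At P3 its wild-type libraries were at 353, 371 and 352 FPKM and its mutant libraries at 544, 516 and 511 FPKM. The groups were far apart, with a log2 difference of 0.55 (SE 0.04, adjusted p = 0.0029), which was 0.55 under TPM and 0.39 under quantile normalization. At P2 the difference was 0.51 (SE 0.07, adjusted p = 0.0233), with 376 ± 30.04 FPKM in wild type and 534 ± 8.45 FPKM in mutants. At P1 and P4 it was 0.11 (adjusted p = 0.131) and 0.46 (adjusted p = 0.19), so that no difference in level was shown there. Set against the median of the main members, RpL22 was at -1.01 in wild type and -0.65 in mutants at P1 on the log2 scale. The values were -1.18 and -0.77 at P3, -1.07 and -0.78 at P4, and -0.61 and -0.30 at A0. At L3E the order was the other way, with -1.02 and -1.16. These relative values are group means given without a test. RpL22 did not reach the 2-fold threshold at any stage.

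The second copies fell into 3 kinds of profile. RpL10Aa, RpS28-like, RpS28a, RpL22-like, RpL37b, RpS19b and RpS10a shared a drop to 0 or a low level at A0. Of these, RpL10Aa, RpS28-like and RpS28a had their lowest means before P1 at L3E in both genotypes, at 2.44 FPKM or less. RpL22-like, RpL37b, RpS19b and RpS10a had higher means at P3 than at L3E in wild type, but in mutants their means at L3E and P3 were 9.41 and 8.96, 4.73 and 3.98, 13.75 and 14.5, and 5.98 and 7.76 FPKM. RpS5b rose from P3 to A0. RpL34a, RpS14b, RpS15Ab, RpL24-like and RpLP0-like were present in every library, at 12.04 FPKM or more. RpL7-like had 0 reads in all 48 libraries, which allows up to 0.0423 to 0.136 FPKM per library when 3 reads are taken as the limit of a count of 0. The limit covers counting error only. RpL7-like overlaps CG34164 on the same strand, whose mean also rounded to 0 reads. How reads shared by the 2 genes were counted is not given in the sources used here.

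All 7 copies of the first kind were called lower at A0 than at P4 in both genotypes. Of the 12282 tested genes, 2420 were called lower there in wild type and 2474 in mutants. The first kind was set by this same drop, so that the calls are no separate support for the grouping. No other member was called at that step. RpL10Aa, a copy of the large subunit protein RpL10Ab (chromosome arm 3R, positions 15037366 to 15038149, plus strand, BDGP6), was at 26.9, 29.7 and 38.9 FPKM at wild-type P4 and at 0 in all 3 wild-type A0 libraries. With the limit of 3 reads per library it was at least 136-fold lower. In mutants it was at 23.4, 31.3 and 22.5 FPKM at P4 and at 0, 0 and 1.53 FPKM at A0, where the single value above 0 came from replicate 3, the library with the most roX1 among the A0 libraries. Its main copy RpL10Ab was at 754 to 771 FPKM at wild-type P4 and at 796 to 863 FPKM at wild-type A0.

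RpL22-like (2R, positions 23246610 to 23247893, minus strand) went from 9.80, 9.32 and 12.5 FPKM at wild-type P4 to 0 in all 3 A0 libraries, at least 70.9-fold lower with the same limit. In mutants it went from 7.80, 9.17 and 6.55 FPKM to 0, 0 and 0.417 FPKM, the last again in replicate 3. RpS19b (3R, positions 23932729 to 23933530, minus strand), a copy of the small subunit protein RpS19a, kept a low level. Its wild-type libraries were at 16.5, 16.3 and 23.9 FPKM at P4 and at 1.83, 1.57 and 1.01 FPKM at A0, a log2 difference of -3.001 (SE 0.21, adjusted p = 8.6e-11). In mutants the difference was -2.22 (SE 0.22, adjusted p = 2.25e-08).

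RpS10a, a copy of RpS10b, was at 7.75, 7.47 and 11.8 FPKM at wild-type P4 and at 0.440, 0.248 and 0.607 FPKM at A0, with differences of -2.79 in wild type and -1.98 in mutants (SE 0.28 and 0.27). It overlaps tau on the opposite strand, and the sources used here do not say whether reads were counted by strand. RpL37b, a copy of RpL37a, had 1 read in each wild-type A0 library and 0 reads in the mutant ones, against 3.66 to 6.42 FPKM and 2.82 to 6.80 FPKM at P4. RpS28-like and RpS28a, copies of RpS28b, had 1 and 5 reads in all over the wild-type A0 libraries and 0 and 4 in the mutant ones. RpS28-like overlaps CG3769 on the same strand, so that reads there could belong to either gene.

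These 7 copies differed in larvae. RpL10Aa had 0 reads in the 3 wild-type L3E libraries, and RpS28-like and RpS28a had 1 read each over the group. RpL22-like, RpS19b, RpL37b and RpS10a were already at 9.08 to 15.1, 10.4 to 15.96, 3.29 to 6.92 and 3.99 to 6.85 FPKM there. RpL10Aa then rose to 2.24, 2.67 and 1.90 FPKM at L3L (at least 7.31-fold) and to 10.5, 6.32 and 12.05 FPKM at WP, with calls at both wild-type steps (differences of 1.70 and 1.67, SE 0.20, adjusted p = 2.76e-07 and 2.33e-07). In mutants it was called from L3E to L3L (1.38, SE 0.32, adjusted p = 0.00112) and from WP to P1 (1.11, SE 0.32, adjusted p = 0.00548). RpS28-like was called from P1 to P2 in wild type (1.04, SE 0.23, adjusted p = 6.66e-04). Of the 7 copies, 6 had their highest group mean at wild-type P3, and RpS28a had it at mutant P4 with 2.88 FPKM.

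**Figure D4:**
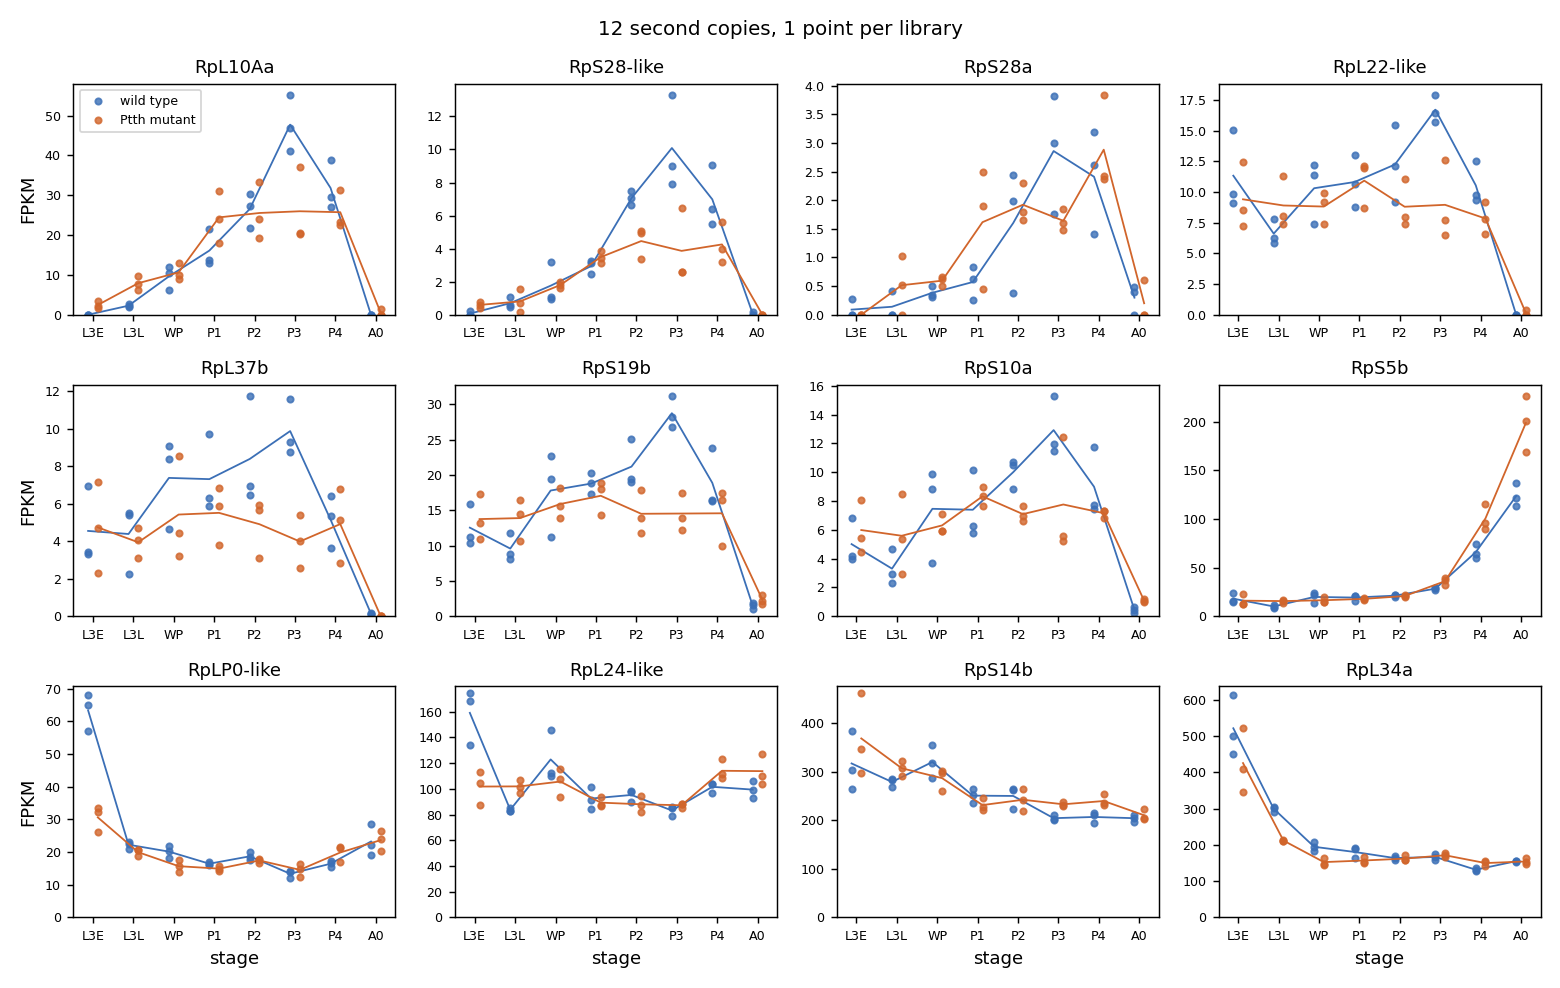
FPKM of 12 second copies at 8 stages; each point is 1 library, lines join the means of 3 libraries, blue wild type, orange Ptth mutants, and each panel has its own axis from 0. In the first 7 panels the level at A0 is near 0, RpS5b reaches 124 FPKM in wild type and 199 FPKM in mutants at A0, and RpLP0-like is highest at wild-type L3E with 63.4 FPKM.

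Between the genotypes, RpL10Aa was higher in mutant larvae, and RpL37b and RpS28-like were lower in mutants at P3. RpL10Aa was at 0 in the 3 wild-type L3E libraries and at 3.41, 2.23 and 1.69 FPKM in the mutant ones, at least 7.88-fold higher (limma, adjusted p = 0.00128). At L3L it was at 2.24, 2.67 and 1.90 FPKM in wild type and at 9.81, 7.62 and 6.32 FPKM in mutants, a log2 difference of 1.44 (SE 0.17, adjusted p = 0.00248). Both calls were kept in all 13 alternatives. At equal age the mutant L3E values overlapped those of wild-type L3L and RpL10Aa was not called. At the step from L3L to WP, 1 of 92 members was called as different between the genotypes (7.82% of all genes). RpL10Aa rose from 2.27 to 9.63 FPKM in wild type and stood at 7.92 and 10.6 FPKM in mutants, a difference of the 2 steps of -1.28 (SE 0.39, adjusted p = 0.0167). The call was lost under quantile normalization, limma-voom and a pseudocount of 0.1, and without replicate 1 of every group.

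At P3 RpL37b (2R, positions 23100057 to 23100478, minus strand) was at 8.77, 11.6 and 9.27 FPKM in wild type and at 3.99, 2.57 and 5.39 FPKM in mutants. RpS28-like (2L, positions 9436804 to 9437227, plus strand) was at 7.94, 9.01 and 13.3 FPKM in wild type and at 2.56, 2.60 and 6.44 FPKM in mutants. The genotypes did not overlap for either gene, with log2 differences of -1.16 (SE 0.23, adjusted p = 0.0272) and -1.25 (SE 0.35, adjusted p = 0.0482). RpS19b, RpL10Aa and RpL22-like differed by -0.95, -0.90 and -0.88 (adjusted p = 0.0163, 0.0519 and 0.0413), also without overlap and under the 2-fold threshold. The P3 calls were not stable: leaving out any 1 of wild-type replicates 1, 2 and 3 or of mutant replicates 1 and 2 gave 0 calls, and leaving out mutant replicate 3, the highest of the mutant libraries for both genes, gave 6.

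Testis genes were compared with these copies. The summed level of 35 listed testis genes was 17.9 to 22.9 FPKM at wild-type L3E and 168 to 274 FPKM at mutant L3E, 129 to 182 FPKM at wild-type L3L and 396 to 603 FPKM at mutant L3L. At P3 it was 2934 to 3366 FPKM in wild type and 1509 to 2504 FPKM in mutants, and 32 of the 35 genes had every mutant library below every wild-type library (25.5% of all tested genes did). At A0 it was 5.28 to 7.61 FPKM in wild type, where 16 of the 35 genes were at 0 in every library, and 6.30 to 118 FPKM in mutants, where 2 were. Among defining markers, betaTub85D, the tubulin of spermatocytes, was at 320 to 365 FPKM at wild-type P3, 164 to 272 FPKM at mutant P3 and 0.0542 to 0.232 FPKM at wild-type A0. The male RNA roX1 was at 61.3, 59.0 and 67.5 FPKM at wild-type P3 and at 26.7, 31.7 and 46.5 FPKM at mutant P3, with mutant replicate 3 again the highest of its group. In larvae roX1 was at 25.7 to 30.5 FPKM in wild type and 31.2 to 41.4 FPKM in mutants at L3E. At L3L it was at 27.3 to 43.4 and 51.1 to 67.9 FPKM. Of the 3 listed male genes, only roX1 had every mutant library above every wild-type library at these 2 stages, and at L3E 1 was below. The testis sum went the way of RpL10Aa in wild-type and mutant larvae, at P3 and at A0. For the 4 copies already present at wild-type L3E it did so at P3 and A0 but not in larvae: from L3E to L3L in wild type the means went from 11.3 to 6.61 FPKM for RpL22-like, from 12.5 to 9.57 FPKM for RpS19b, from 4.54 to 4.38 FPKM for RpL37b and from 5.001 to 3.30 FPKM for RpS10a, while the testis sum was higher at L3L. The part of testis content, and of the share of males in the pools, in the levels of the 7 copies was not tested.

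RpS5b, a copy of the small subunit protein RpS5a (3R, positions 14900432 to 14901563, minus strand), was the only member that was highest in A0. Its wild-type libraries were at 28.9, 29.2 and 26.6 FPKM at P3, at 59.7, 74.2 and 63.6 FPKM at P4 and at 137, 113 and 121 FPKM at A0. Its mutant libraries were at 36.8, 38.99 and 31.99 FPKM at P3, at 116, 96.2 and 89.8 FPKM at P4 and at 227, 169 and 201 FPKM at A0. From P3 to P4 it rose by 1.19 in wild type (SE 0.18, adjusted p = 6.64e-06) and by 1.46 in mutants (SE 0.17, adjusted p = 3.6e-07) on the log2 scale, and it rose further from P4 to A0 by 0.90 and 0.97 (adjusted p = 1.68e-04 and 5.52e-05). Both P3 to P4 calls were kept in all 10 alternatives.

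RpS5b was higher in every mutant library than in every wild-type library at P3, P4 and A0. The log2 differences were 0.33 (SE 0.08, adjusted p = 0.0401), 0.60 (SE 0.13, adjusted p = 0.0756) and 0.68 (SE 0.13, adjusted p = 0.11). The last 2 did not pass the adjusted threshold, and none reached 2-fold. As a share of the summed FPKM of RpS5a and RpS5b, RpS5b made up 0.882% at wild-type L3L, 3.83% at P3, 9.43% at P4 and 16.2% ± 1.46 at A0. In mutants the share was 1.72% at L3L, 4.37% at P3, 13.02% at P4 and 24.3% ± 1.95 at A0. The exact permutation test gave p = 0.1 for the genotype difference at P4 and A0, the smallest that 3 against 3 libraries allow.

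Ovary genes were also compared over the late stages. The summed level of 15 listed genes of the ovary and early germ line was 89.0 to 96.4 FPKM at wild-type P3, 102 to 127 FPKM at P4 and 176 to 191 FPKM at A0, and in mutants it was 102 to 111, 137 to 154 and 209 to 260 FPKM. At A0 11 of the 15 and at P4 9 of the 15 had every mutant library above every wild-type library (8.76% and 12.2% of all tested genes did). At P3 8 were above and 2 below. Of all tested genes 25.5% were below at P3, and the share above was not determined, so that the 8 are not read as a result. Much of the P3 sum came from tud. Without it the sum was 35.6 to 36.3 FPKM in wild type and 35.6 to 39.2 FPKM in mutants at P3, where the genotypes overlapped, 54.7 to 70.2 and 81.9 to 92.1 FPKM at P4, and 114 to 125 and 147 to 199 FPKM at A0. Osk, whose mRNA is made in oocytes and nurse cells, was at 53.4 to 55.8 FPKM at wild-type A0 and at 63.5 to 91.8 FPKM at mutant A0. At P3 osk was at 1.08 to 1.41 FPKM in wild type and, unlike the sum without tud, higher in every mutant library, at 2.30 to 5.15 FPKM. The male RNA roX1 was at 23.8 to 35.7 FPKM in the P4 libraries and at 0.158 to 1.55 FPKM in the A0 libraries. For the rise of RpS5b from P4 to A0, stage and any change in the share of males thus cannot be told apart. The part of ovary content, and of the share of males in the pools, in the level of RpS5b was not tested.

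RpLP0-like (2R, positions 10098518 to 10099590, minus strand) had the largest fall of any member between L3E and L3L in wild type. It overlaps Jra on the opposite strand. Its wild-type libraries were at 67.9, 57.0 and 65.2 FPKM at L3E and at 21.001, 23.2 and 22.6 FPKM at L3L. Its mutant libraries were at 33.4, 32.3 and 26.2 FPKM at L3E and at 20.5, 18.7 and 20.7 FPKM at L3L. The wild-type L3E libraries stood apart from the other 3 larval groups, with a log2 fall to L3L of -1.47 (SE 0.11, adjusted p = 4.25e-10) and a genotype difference at L3E of -1.03 (SE 0.12, adjusted p = 0.00184). The genotype call was lost under quantile normalization (-0.67), when centred on the main members (-0.86), and without wild-type replicate 1 (-0.98) or mutant replicate 3 (-0.92).

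RpL24-like (3R, positions 11430740 to 11431582, minus strand) overlaps CG18643 on the opposite strand and had the same order at L3E with a smaller difference. It was at 175, 134 and 168 FPKM in wild type and at 113, 105 and 87.8 FPKM in mutants, a log2 difference of -0.64 (SE 0.14, adjusted p = 0.0171). Between L3E and L3L it fell from 159 to 83.8 FPKM in wild type and stayed at 102 FPKM in mutants. The difference between the genotypes' steps from L3E to L3L was 0.92 for RpL24-like (SE 0.14, adjusted p = 1e-06) and 0.88 for RpLP0-like (SE 0.16, adjusted p = 2.9e-05), both under 2-fold. At this step 0 of 92 members were called as different between genotypes (13.1% of all genes; 28 at an unadjusted p under 0.05 by limma, 1 called by limma-voom, 4 called under TPM).

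Ribosome biogenesis factors were compared over the same larval groups. Of 37 listed genes, 27 were called lower and 0 higher in mutants at L3E (6.78% of all tested genes were called lower), with a median log2 difference of -1.14 (-1.37 under TPM and -0.81 under quantile normalization), against a median of -0.12 for the main ribosomal proteins. The genes called included Fib (fibrillarin), Nop56 and nop5 of the snoRNP core, and RpI1 and RpI135, the large subunits of RNA polymerase I. From L3E to L3L 32 of the 37 were called lower in wild type (10.6% of all genes) and 0 in mutants (8.18%), and for 22 of the 37 the difference between these steps was itself called, as a higher mutant step (6.43% of all genes). At L3L and at equal age limma called 0 of the 37 (7 and 16 at an unadjusted p under 0.05, 0 and 0 called by limma-voom). In mutants from L3E to L3L, limma-voom called 0 as well, and 24 were at an unadjusted p under 0.05. The median over the 37 genes was 28.4 to 31.1 FPKM in the wild-type L3E libraries and 12.3 to 15.6, 10.8 to 12.5 and 10.7 to 11.5 FPKM in those of mutant L3E, wild-type L3L and mutant L3L. Markers of larval age also differed at L3E. The summed level of 6 larval serum and fat body genes was 1930 to 5342 FPKM in wild-type L3E, 37799 to 41194 FPKM in mutant L3E and 36369 to 40066 FPKM in wild-type L3L. That of 7 salivary glue genes was 1.98 to 2.93 FPKM in wild-type L3E, 102 to 153 FPKM in mutant L3E and 6943 to 7504 FPKM in wild-type L3L. The part of larval age in the biogenesis values was not tested.

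**Figure D5:**
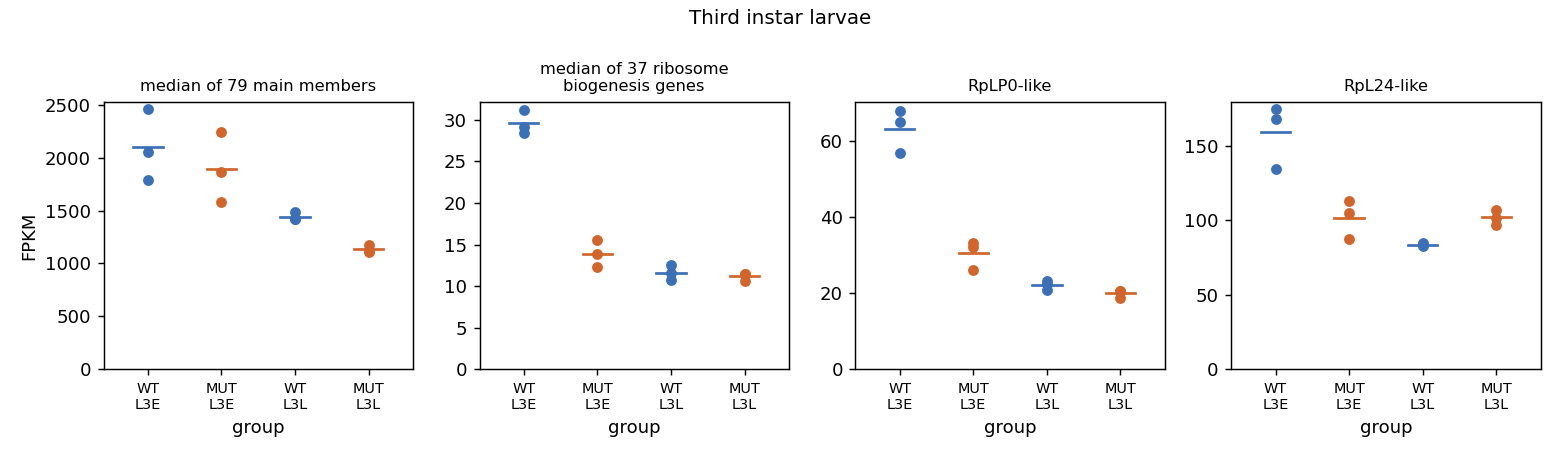
FPKM in larvae of the third instar: the median of 79 main ribosomal protein members, the median of 37 ribosome biogenesis genes, RpLP0-like and RpL24-like; each point is 1 library, bars are the means of 3 libraries, blue wild type (WT), orange Ptth mutants (MUT), each axis from 0. The biogenesis median and RpLP0-like are highest in wild-type L3E (28.4 to 31.1 FPKM and 57.0 to 67.9 FPKM), while the main members of the 2 genotypes overlap at L3E.

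Other genes of translation were compared at the same stages. Of 38 translation factors 0 were called between the genotypes at any stage or at equal age. Of all tested genes, 17.2% were called at L3E, 10.8% at L3L and 3.81% at equal age. From WP to A0 the share was 0.448% to 3.12%, so low that 0 of 38 says little there. The median difference of the 38 factors was -0.30 at L3E and, by scale, -0.15 at L3L (0.16 under TPM). By limma 9 to 28 of them were at an unadjusted p under 0.05, and limma-voom called 0 in each comparison. From L3E to A0, 22 were called lower and 1 higher in wild type (19.5% of all genes were called lower) and 8 lower and 1 higher in mutants (21.2%). Of 14 listed regulators of ribosome production and translation, Thor, the 4E-BP that holds back cap-dependent translation, was called lower in mutants at L3E and at equal age. In either direction 17.2% and 3.81% of all tested genes were called in these 2 comparisons. Thor was the only regulator called between the genotypes.

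The remaining second copies were closer to the main members in their course. RpS14b, which lies beside its near-identical copy RpS14a, had the narrowest range of the 91 members with a mean of at least 3 FPKM, and RpL24-like and RpS15Ab came next, with ranges of the group means of 0.82, 0.92 and 1.08 on the log2 scale. Because RpS14a and RpS14b are nearly identical, how reads were split between them is uncertain, and the same holds to a lesser degree for RpL34a with RpL34b and RpS15Ab with RpS15Aa. The share of RpS14b in its pair was 22.4% ± 0.110 at wild-type L3E and 24.7% ± 0.0706 at mutant L3E, and 24.8% and 30.9% at L3L, without overlap. RpS15Ab was 3.26% of its pair at wild-type L3E and 4.17% at mutant L3E, and RpL34a was 22.9% and 22.02%. With 3 libraries against 3 the exact permutation test cannot give a p below 0.1, so that it could not call any difference in share, whatever its size. Of 112 comparisons over 14 pairs and 8 stages, 8 of them of RpL7-like at 0 in every library, 43 had that smallest p.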

How the data were processed

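Poly(A) RNA of whole animals was sequenced in 48 libraries. The authors deposited FPKM values per gene for all libraries in 1 table. The submitters' processing notes name HISAT2 2.0.5, featureCounts 1.5.0-p3 and BDGP6, whereas the study's methods name STAR and htseq-count with DESeq2 normalization, and whether reads were counted by strand is not given in the sources used here. Each value was a whole number of reads (100% within 0.001) over gene length and a size factor, so that reads could be recovered.

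Genes reaching 3 FPKM in at least 1 library were kept (12282). Values entered as log2(FPKM + 1) into limma 3.58.1 in R 4.3.3: each genotype comparison on the 6 libraries of a stage, steps on the 24 libraries of a genotype and differences of steps on all 48, with Benjamini-Hochberg adjustment over all tested genes. A gene was called when its adjusted p was below 0.05 and it differed by more than 2-fold. Shares within a pair were tested by a two-sided exact permutation test. The script was tested on simulated data. Named genes were members called in a comparison, members of the listed pairs and roles, and those with the widest or narrowest range. Alternatives were TPM and quantile scaling, limma-voom on recovered reads, a pseudocount of 0.1, no filter, a replicate block and each replicate left out. The members and lists were chosen with earlier results of these data known. Tables were made with Python 3.11.15, pandas 2.3.3, numpy 2.4.6 and matplotlib 3.10.9. Some members are not reported here by name.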

Additional observations from a re-analysis of the deposited data

Results flagged for a closer look

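The step of RpL10Aa from late larvae (L3L) to white prepupae (WP) differed between the genotypes, with a difference of the mutant and the wild-type step of -1.28 on the log2(FPKM + 1) scale (SE 0.39, limma adjusted p = 0.0167). RpL10Aa was at 2.24, 2.67 and 1.90 FPKM in wild-type L3L and at 9.81, 7.62 and 6.32 FPKM in mutant L3L, while the WP libraries of the genotypes overlapped. The difference was no longer called under quantile normalization (-1.04), limma-voom (-1.64), a pseudocount of 0.1 (-1.57) or without replicate 1 (-1.01). The summed level of 35 testis genes was 129 to 182 FPKM in wild-type and 396 to 603 FPKM in mutant L3L, and 388 to 672 and 607 to 786 FPKM at WP. Its part in the difference was not tested.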

How the results depend on the processing

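Counts are of members called. Between genotypes, the L3E count of 2 was 1 when centred on the main members and 5 at 1.5-fold; the L3L count of 2 was 1 under TPM, quantile normalization or centring and 6 at 1.5-fold. The P3 count of 2 was 1 under TPM, a pseudocount of 0.1 or the replicate block, 0 with no filter, 5 when centred and 4 at 1.5-fold, and the A0 count of 0 was 1 with the smaller pseudocount. Replicate numbers did not pair the libraries (at 0 of 8 stages was every correlation over 0.1). In wild type, L3E to L3L (2) gave 1 when centred and 27 at 1.5-fold; L3L to WP (1) gave 8 under TPM, 3 under quantile normalization, 2 by limma-voom, 3 with the smaller pseudocount, 4 when centred and 10 at 1.5-fold; WP to P1 (0) gave 2 under TPM, 1 when centred and 9 at 1.5-fold. P1 to P2 (1) gave 0 under TPM or quantile normalization and 2 at 1.5-fold, P2 to P3 (0) gave 2 under quantile normalization and 1 at 1.5-fold, and P3 to P4 (1) gave 4 at 1.5-fold. L3E to A0 (85) gave 10 under TPM, 6 under quantile normalization and 5 when centred. In mutants, L3E to L3L (2) gave 1 under TPM, quantile normalization, limma-voom or centring and 75 at 1.5-fold; L3L to WP (0) gave 1 under each of TPM, quantile normalization, limma-voom, the smaller pseudocount and 1.5-fold; WP to P1 (1) gave 3 under TPM, 0 with the smaller pseudocount and 4 at 1.5-fold; P2 to P3 (0) gave 1 at 1.5-fold; L3E to A0 (61) gave 7 under TPM, 6 under quantile normalization and 5 when centred. The difference of the L3L to WP steps (1) gave 0 under quantile normalization, limma-voom or the smaller pseudocount and 2 at 1.5-fold, and that of the L3E to L3L steps (0) gave 4 under TPM, 1 by limma-voom, 2 with the smaller pseudocount, 2 when centred and 6 at 1.5-fold. With 1 replicate left out, counts ranged from 1 to 2 at L3E and L3L, 0 to 1 at P1 and 0 to 6 at P3, and, over the wild-type steps in order, 2 to 5, 1 to 5, 0 to 1, 0 to 1, 0 to 2, 1 to 2 and 7 to 8, with 83 to 85 for L3E to A0. In mutants they ranged from 2 to 12 for L3E to L3L, 0 to 1 for WP to P1, 7 to 8 for P4 to A0 and 51 to 68 for L3E to A0, and the differences of steps from 0 to 3 (L3L to WP) and 0 to 2 (L3E to L3L). RpL32 changed sign at L3L under TPM (0.0103) and when centred (0.0512), and for wild-type L3E to A0 when centred (0.0244); the cause of these changes is the scale itself. Centring, the L3E to A0 comparison and calls at any fold were chosen after seeing the data. With 3 libraries a group, differences of single genes under 2-fold were often not detectable, and genes with a few reads rest on the pseudocount.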
